A study of Arabidopsis thaliana with 12 samples.

Results

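The comparison set the 3 sob3-6 libraries against the 3 SOB3-D libraries of an RNA-seq series of Arabidopsis thaliana, 6 of its 12 libraries. They were chosen by genotype, because both lines carry abundant SOB3 transcript and differ in the protein it codes for. All plants were of the Columbia (Col-0) ecotype, 14 days old, grown in 16 h light and 8 h dark at 22 °C without sucrose, and cut through the hypocotyl at ZT4, 4 h after lights on, so that the apical portion was sampled. sob3-6 is labelled a dominant-negative ahl mutant and SOB3-D an AHL overexpressor. As background, SOB3-D arose by activation tagging, in which inserted enhancers raise transcription of the gene beside them, and sob3-6 was isolated from that line with a missense change in the AT-hook, so the activating insertion is shared and each genotype is 1 line. Col-0 plants (3 libraries) had no altered gene and their levels are given for orientation only. The pif4 pif5 pif7 triple mutant (3 libraries) entered only the expression filter, the choice of transcript, the principal components, the scaling and the estimate of spread, and its levels are not given. The labels number the replicates without saying how they were grown, so each p-value reflects only library-to-library spread, which may be technical.

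SOB3 (AHL29) is a member of the AHL family, proteins that bind AT-rich DNA through an AT-hook and associate with each other through a PPC domain. AHLs are known as repressors of hypocotyl and petiole elongation, and the mutant sob3-6 protein is known to interfere with the whole family, so that its seedlings are tall where SOB3-D seedlings are short. PIF4, PIF5 and PIF7, the bHLH factors against which the study sets the AHLs, promote elongation through auxin synthesis and auxin-responsive genes. The comparison asks which transcripts differ when a similar amount of SOB3 transcript codes for an interfering or for a functional protein.

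Values are ppm of mapped tags per transcript, read through 1 transcript per locus, and 18502 genes were tested. Depth was 10179924 to 12567173 reads in sob3-6 libraries, against 7637822 to 8877404 in SOB3-D libraries, so 0 reads over the 3 libraries of a line allows up to 0.0852 ppm in sob3-6 and 0.12 ppm in SOB3-D (a limit of 3 reads, for counting error only). Library pairs within each of these lines correlated at r = 0.992 to 0.995 across genes and differed beyond counting error (chi-square over its degrees of freedom, 1.855 to 3.188). On principal component 1, with 40.69% of the variance, lay sob3-6 libraries at -18.61 to -17.9 and SOB3-D libraries at 31.29 to 32.3. Photosynthesis transcripts of the nucleus summed to 179634 to 181912 ppm in sob3-6 libraries and 196885 to 203891 ppm in SOB3-D libraries.

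SOB3 (AT1G76500, chromosome 1, 28704963 to 28706691, TAIR10.1) had 232, 217 and 232 ppm in sob3-6 libraries, against 206, 180 and 203 ppm in SOB3-D libraries, while Col-0 averaged 0.145 ± 0.16 ppm (SD, n = 3). All 3 sob3-6 libraries lay above all 3 SOB3-D libraries, as they did for 30.9% of all tested genes. The difference, sob3-6 minus SOB3-D, was 0.21 on the log2(ppm + 1) scale (SE 0.10, 95% interval 0.00 to 0.42) and was not called by limma (adjusted p = 0.11). With median-of-ratios scaling, which divides each library by its median ratio to a common reference, it was 0.12 (adjusted p = 0.39). The ratio of means was 1.16. The call depended on the fit, since with only the 6 libraries fitted the same 0.21 was called (adjusted p = 0.00443), as it was with a pseudocount of 4 ppm (adjusted p = 0.0141). ESC (AHL27), the closest relative of SOB3, was below the expression filter at 0.463 ± 0.14 ppm in sob3-6 and 0.428 ± 0.31 ppm in SOB3-D.

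Within 20 kb on either side of SOB3, 8 other genes were tested. PILS3, an auxin carrier of the endoplasmic reticulum, averaged 40.1 ± 4.7 ppm in sob3-6 and 27.2 ± 1.5 ppm in SOB3-D (log2 0.54, SE 0.10, adjusted p = 0.00031). AT1G76550 was likewise higher in sob3-6 (37.0 ± 0.36 against 27.4 ± 1.4 ppm). HMG1, which makes mevalonate for sterols, averaged 301 ± 22 ppm in sob3-6 and 349 ± 20 ppm in SOB3-D and was lower in sob3-6 (adjusted p = 0.0012), as was AT1G76450 (104 ± 2.8 against 117 ± 5 ppm). AT1G76460, AT1G76510, PILS4 and CDKB2;1 were not called.

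**Figure D1:**
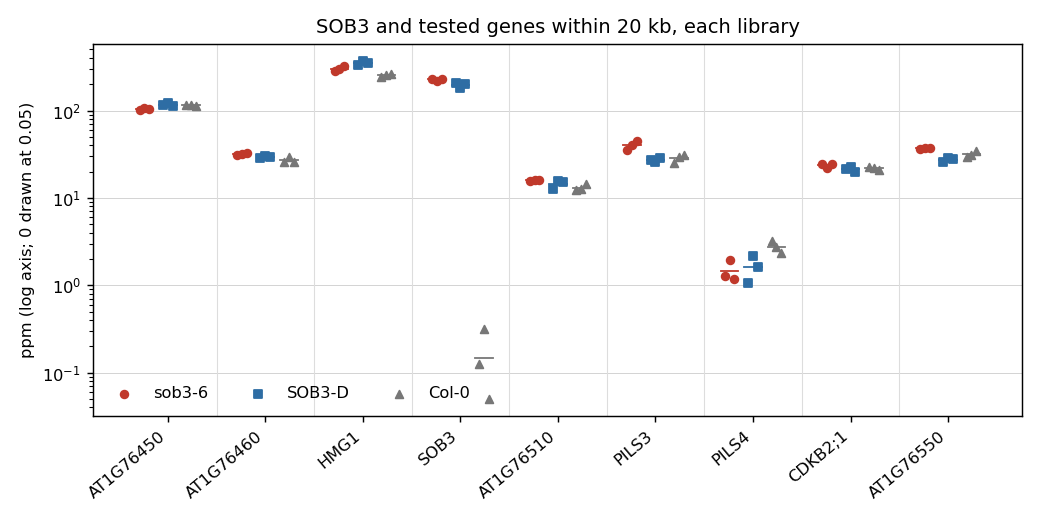
Level in ppm on a log axis (0 drawn at 0.05) of SOB3 and the tested genes within 20 kb of it, ordered along chromosome 1. Points are single libraries of sob3-6, SOB3-D and Col-0 and short lines are means of 3. SOB3 stands at 217 to 232 ppm in sob3-6 and 180 to 206 ppm in SOB3-D, and PILS3 at a mean of 40.1 ppm in sob3-6 and 27.2 ppm in SOB3-D.

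Over all tested genes, 6600 were called between the lines (35.7% of 18502), 4588 higher in sob3-6 (24.8%) and 2012 lower (10.9%). Most of these differences were small, with a median log2 difference of 0.33 among the genes called higher and -0.43 among those called lower. At least 2-fold differences were called for 2.12% of genes, 147 higher in sob3-6 (0.795%) and 245 lower (1.32%). At least 8-fold differences were called for 6 genes higher in sob3-6 and 18 lower. The libraries of the lines did not overlap for 44.1% of tested genes, with sob3-6 above for 30.9% and below for 13.2%.

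Scaling changed the balance of small differences. With ppm as deposited 69.5% of called genes were higher in sob3-6, and with median-of-ratios scaling 46.4% were (2565 higher, 13.9% of genes, and 2961 lower, 16%, in all 29.9% of genes called). The scaling factors were 1.041 to 1.052 for sob3-6 and 0.9799 to 0.9883 for SOB3-D libraries, and the median log2 difference of all tested genes was 0.09 as deposited and 0.01 after scaling. The share of calls that were higher was 45.1% with TMM scaling, 52.6% after quantile normalization, 43.7% by edgeR and 41.7% by DESeq2 on whole reads. Of the calls, 2565 higher and 2011 lower were made both as deposited and after median-of-ratios scaling, and 0 genes were called in opposite directions. The 2023 genes higher only as deposited differed by at most 0.60, and the 950 lower only after scaling by at most 0.78. Differences of at least 2-fold after scaling numbered 123 higher and 288 lower.

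**Figure D2:**
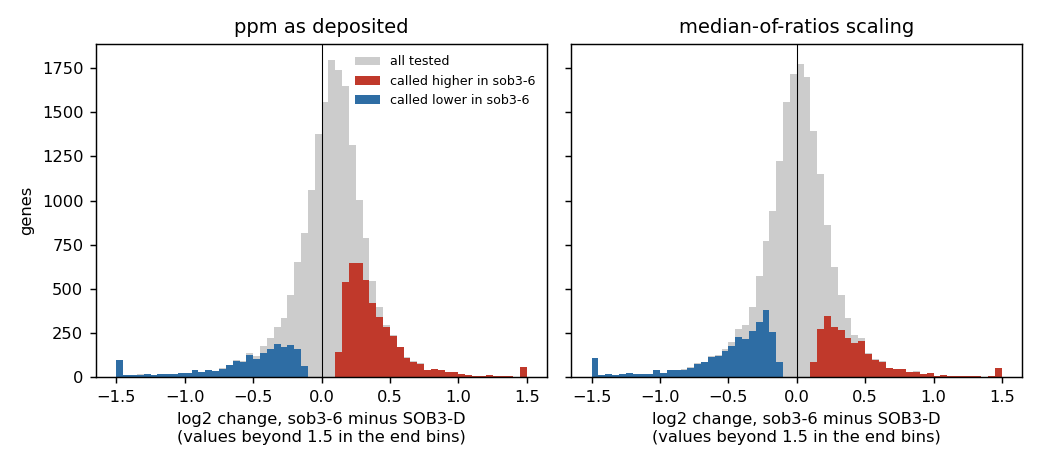
Number of genes by log2(ppm + 1) difference, sob3-6 minus SOB3-D, as deposited (left) and after median-of-ratios scaling (right). Grey bars are all 18502 tested genes and coloured bars those called, with 69.5% of calls higher in sob3-6 on the left and 46.4% on the right.

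PYK10 and other genes of the ER body had some of the strongest differences. The ER body is a compartment of the endoplasmic reticulum that stores beta-glucosidases able to break down glucosinolates when cells are damaged. Of 19 tested genes of 21 entries on the ER body list, 13 were lower in sob3-6, 3 were higher and 3 were not called, with a median log2 difference of -1.62 (0.09 over all genes). As deposited 84.2% of the tested ER body genes were called, beside 35.7% of all tested genes (10.9% lower and 24.8% higher). The ER body counts were the same with median-of-ratios scaling (13 lower, 3 higher, median -1.70). The 13 lower in sob3-6 were PYK10, JAL22, JAL30, JAL31, JAL33, JAL34, NAI1, NAI2, MEB1, MEB2, GLL22, GLL23 and BGLU21. The count of 3 higher was 1 without sob3-6 replicate 1, as well as without SOB3-D replicate 1 or 2. In whole shoots, fewer cells of a type and less RNA per cell cannot be told apart.

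PYK10 (AT3G09260, chromosome 3, 2840477 to 2843781), the main beta-glucosidase of ER bodies, had 59.9, 57.6 and 69.5 ppm in sob3-6 libraries, against 1398, 1374 and 1211 ppm in SOB3-D libraries (log2 -4.39, SE 0.11, adjusted p = 1.3e-09). NAI2, a protein required for ER bodies to form, had 32.1, 26.3 and 30.3 ppm in sob3-6 libraries, against 184, 182 and 157 ppm in SOB3-D libraries (-2.52, SE 0.09, adjusted p = 1.6e-10). MEB1, a membrane protein of ER bodies, averaged 7.43 ± 0.31 ppm in sob3-6 and 24.9 ± 0.49 ppm in SOB3-D (-1.62, adjusted p = 2.5e-13). None of the libraries overlapped for these 3 genes, and sob3-6 libraries lay all below SOB3-D libraries for 13.2% of all tested genes. Col-0 means of the 3 genes lay between those of the lines at 308, 83.9 and 9.43 ppm. Of NAI1, the bHLH factor known to activate PYK10 and NAI2, sob3-6 plants had 4.37 ± 0.43 ppm and SOB3-D plants 8.13 ± 0.18 ppm (-0.77, adjusted p = 6e-05).

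The jacalin-related lectins of the list, sugar-binding proteins that join PYK10 in complexes after tissue damage, were lower too. JAL33 (AT3G16450) had 4.17, 4.03 and 3.74 ppm in sob3-6 libraries, against 103, 99.6 and 92.6 ppm in SOB3-D libraries (-4.32, SE 0.12, adjusted p = 1.3e-14). JAL31 averaged 1.87 ± 0.32 ppm in sob3-6 and 28.3 ± 2.5 ppm in SOB3-D (-3.36, adjusted p = 1.7e-20), and JAL22 13.4 ± 2.1 and 194 ± 13 ppm (-3.76, adjusted p = 8.7e-10). Not all members shared the direction. BGLU18, a beta-glucosidase of the ER bodies of leaves, had 564, 652 and 464 ppm in sob3-6 libraries, against 254, 242 and 322 ppm in SOB3-D libraries (1.03, SE 0.19, adjusted p = 0.0033), and JAL23 and MBP2, a myrosinase-binding protein, were also called higher. NAI1, BGLU18 and the nitrile specifier genes below were picked for their values after these had been seen.

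JAL30, JAL31, JAL33 and JAL34 lie side by side on chromosome 3 with the nitrile specifier protein genes NSP3, NSP1 and NSP4, whose products steer glucosinolate breakdown toward nitriles. These 7 neighbouring tested genes, from 5562400 to 5595912, were all called lower in sob3-6, 1 of 4 runs of 5 or more neighbours lower in sob3-6 in the genome (18 runs were higher). NSP1 averaged 131 ± 8.5 ppm in sob3-6 and 324 ± 9.5 ppm in SOB3-D, and NSP4 64.3 ± 1.6 and 154 ± 4.2 ppm. Near-identical genes of such clusters can share reads, so the values of single lectin genes are uncertain.

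To show the DNA before these genes and before growth genes described further on, the 250 bases upstream of the annotated start of 3 ER body genes and of 2 auxin-responsive genes are given here. They were read 5′ to 3′ on the gene's strand from TAIR10.1, at chr3:2843782-2844031 (minus strand, PYK10), chr3:5588042-5588291 (plus, JAL33), chr3:5402654-5402903 (minus, NAI2), chr4:15583082-15583331 (plus, IAA29) and chr5:5975088-5975337 (minus, SAUR22). Capitals mark AATATT, an AT-rich run that reads the same on both strands, and CACGTG, the G-box that PIFs and other bHLH factors are known to bind.
PYK10: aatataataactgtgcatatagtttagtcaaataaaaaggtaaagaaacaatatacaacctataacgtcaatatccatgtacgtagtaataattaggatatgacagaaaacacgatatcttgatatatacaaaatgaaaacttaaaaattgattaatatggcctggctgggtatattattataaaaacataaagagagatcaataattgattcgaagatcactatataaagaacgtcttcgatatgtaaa
JAL33: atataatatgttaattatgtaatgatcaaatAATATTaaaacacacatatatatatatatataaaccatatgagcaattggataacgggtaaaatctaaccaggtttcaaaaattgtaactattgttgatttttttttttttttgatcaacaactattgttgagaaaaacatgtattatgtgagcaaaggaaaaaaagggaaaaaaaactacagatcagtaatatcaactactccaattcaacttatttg
NAI2: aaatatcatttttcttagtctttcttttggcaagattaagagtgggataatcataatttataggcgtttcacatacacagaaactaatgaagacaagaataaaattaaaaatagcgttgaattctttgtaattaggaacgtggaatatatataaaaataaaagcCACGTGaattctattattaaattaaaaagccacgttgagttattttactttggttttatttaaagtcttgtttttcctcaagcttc
IAA29: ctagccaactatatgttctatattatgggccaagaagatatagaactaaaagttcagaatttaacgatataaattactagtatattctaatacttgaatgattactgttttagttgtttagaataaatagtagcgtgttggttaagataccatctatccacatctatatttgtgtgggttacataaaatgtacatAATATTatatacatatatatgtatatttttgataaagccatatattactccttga
SAUR22: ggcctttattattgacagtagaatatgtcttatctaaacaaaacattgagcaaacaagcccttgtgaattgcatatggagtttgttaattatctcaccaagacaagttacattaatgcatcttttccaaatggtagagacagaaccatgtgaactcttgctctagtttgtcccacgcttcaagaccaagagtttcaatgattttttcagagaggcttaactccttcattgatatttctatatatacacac
JAL33 and IAA29 each held 1 AATATT and NAI2 held 1 CACGTG, while the PYK10 and SAUR22 windows held neither. AT content was 74% in PYK10, 76.4% in JAL33, 73.2% in NAI2, 74% in IAA29 and 64.8% in SAUR22, with a median of 68.4% over the windows of 18299 tested genes.

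Over all such windows, searched on both strands, AATATT was present before 30.1% of tested genes. It was present before 40.8% of the 245 genes at least 2-fold lower in sob3-6 and before 28.8% of the 146 with a window that were at least 2-fold higher. Among all genes called, the shares were 35.6% for lower and 30.2% for higher genes. Median AT content was 70.8% in windows of genes at least 2-fold lower and 70% in those of all lower genes. It was 68.4% for both sets of higher genes, as for all tested genes. The part of AT content in the AATATT shares was not tested. The G-box was present before 7.76% of the genes at least 2-fold lower and 8.22% of those at least 2-fold higher, against 7.3% of all tested genes, and TTGAC, the core of the W-box of WRKY factors, before 43.3% and 52.7%, against 43.9% of all. GGNCCC, a core of TCP factor sites, was present before 7.76% and 6.85%, against 8.45% of all. Higher and lower genes here were those called as deposited. These shares describe letters in the windows, and no test was made of them.

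Other genes with the largest differences lower in sob3-6 were of several families. AT2G32550, annotated as a cell differentiation Rcd1-like protein, had 1.36, 1.67 and 1.27 ppm in sob3-6 libraries, against 95.2, 86.1 and 80.9 ppm in SOB3-D libraries (log2 -5.18, SE 0.11, adjusted p = 4.5e-26). The Col-0 mean was 7.5 ppm, between the lines. The subtilase gene SBT4.12 had 3 reads in the 3 sob3-6 libraries together, against 469 in SOB3-D, a ratio of 219.6 in favour of SOB3-D with a 95% counting interval of 74.7 to 1069. Its Col-0 mean of 0.0831 ppm was near that of sob3-6 (0.086 ppm) and far from the 18.7 ± 1.2 ppm of SOB3-D.

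The TRAF-like genes AT5G26280 and AT5G26260 lie in a run of 5 neighbouring genes on chromosome 5, from 9200271 to 9231180, that were all lower in sob3-6. AT5G26280 had 1.44, 1.18 and 1.99 ppm in sob3-6 libraries, against 62.1, 62.2 and 48.5 ppm in SOB3-D libraries (-4.53, SE 0.16, adjusted p = 2.7e-11), and AT5G26260 averaged 0.853 ± 0.12 and 20.6 ± 3.9 ppm (-3.53, adjusted p = 1.8e-07). AT5G26290 of the same run had 0 reads in sob3-6 and was at least 15.1-fold higher in SOB3-D. A TRAF-like gene on chromosome 3, AT3G20370, averaged 0.656 ± 0.16 ppm in sob3-6 and 24.5 ± 1.9 ppm in SOB3-D (-3.95, adjusted p = 1.8e-11), with Col-0 at 21.7 ppm, near SOB3-D. AT1G14250, a nucleoside phosphatase gene, averaged 15.6 ± 2.6 ppm in sob3-6 and 259 ± 22 ppm in SOB3-D (-3.97), the cytochrome P450 gene AT3G44970 3.87 ± 0.086 and 84.1 ± 11 ppm (-4.12), and the lectin gene AT1G52100 3.44 ± 1 and 56.9 ± 3.8 ppm (-3.73). The lectin gene AT5G38550 and the lipid recognition gene AT5G23830 had 0 reads in sob3-6 and were at least 31.1-fold and 32.7-fold higher in SOB3-D. For AT5G23830 the bound was 21.4-fold without SOB3-D replicate 1.

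PCC1 and several other defence genes were among the 12 genes with the largest differences in the other direction. PCC1 (AT3G22231, chromosome 3, 7845823 to 7846833), known for control by pathogens and the clock, had 38.1, 97.9 and 116 ppm in sob3-6 libraries, against 0.131, 0 and 0 ppm in SOB3-D libraries. The SOB3-D value rests on 1 read, against 2934 reads in sob3-6, which gives a ratio of 2088 with a 95% counting interval of 375 to 82517 (fitted log2 6.20, SE 0.50, adjusted p = 1.9e-05). Its neighbours AT3G22235 and AT3G22240, of the same cysteine-rich family, averaged 90.3 ± 40 and 34 ± 16 ppm in sob3-6, against 0.324 ± 0.19 and 0.595 ± 0.077 ppm in SOB3-D (6.00 and 4.32, adjusted p = 8e-06 and 2.5e-05). All 3 genes were lowest in replicate 1 among the sob3-6 libraries, and that library was still far above SOB3-D. Without it the PCC1 difference was 6.69. ACD6, LURP1, AT5G42530 and AT5G03350, described below, were lowest in that sob3-6 library too, while PBS3 was not. A common source of this spread was not tested. PCC1, AT3G22235 and AT3G22240 resemble each other and can share reads.

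ACD6, an ankyrin protein that promotes salicylic acid accumulation, had 27.7, 54.5 and 52.6 ppm in sob3-6 libraries, against 1.31, 1.13 and 1.75 ppm in SOB3-D libraries (4.21, SE 0.23, adjusted p = 1.1e-07). PBS3, which joins glutamate to isochorismate on the way to salicylic acid, had 8.9, 9.53 and 8.12 ppm in sob3-6 libraries, against 0, 0.225 and 0.234 ppm in SOB3-D libraries (3.10, SE 0.17, adjusted p = 8.6e-15). Col-0 means of 10.6 and 6.36 ppm lay between the lines for both. NPR3 and NPR4, salicylic acid receptors that repress defence genes, averaged 21.7 ± 0.6 and 26.1 ± 2.2 ppm in sob3-6, against 9.22 ± 1.4 and 14.6 ± 1.1 ppm in SOB3-D (1.16 and 0.80, adjusted p = 6.9e-11 and 6.5e-09).

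Of 17 tested genes of 24 on the salicylic acid defence list, 10 were higher in sob3-6, 1 was lower and 6 were not called, with a median log2 difference of 0.55, which was the same with LURP1 at its bound. With median-of-ratios scaling 9 were higher and 1 lower, and with a filter at 5 ppm 6 were higher. As deposited 64.7% of the tested list was called, beside 35.7% of all tested genes (24.8% higher). WRKY54, WRKY70, CBP60G, LURP1 and PR5 were the other members called higher. LURP1, induced by pathogens, had 1.36, 5.21 and 11 ppm in sob3-6 libraries (208 reads) and 0 reads in SOB3-D. It was at least 48.9-fold higher in sob3-6, or at least 27.4-fold without sob3-6 replicate 3. EDS5, which exports isochorismate from plastids, was lower in sob3-6. ICS1, which makes isochorismate, averaged 27.5 ± 0.76 ppm in sob3-6 and 27.2 ± 1.9 ppm in SOB3-D (0.02, adjusted p = 0.85), and the defence marker PR1 had 0 reads in both lines. Those 2 genes were picked after their values had been seen.

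Genes for surface receptors of microbes and wall fragments were higher in sob3-6 as well. Of 18 tested of 25 on that list, 13 were higher, 1 was lower and 4 were not called (median 0.70), and 11 were higher and 3 lower with median-of-ratios scaling. FLS2, the flagellin receptor, had 26.2, 25.3 and 32.7 ppm in sob3-6 libraries, against 6.81, 8.22 and 7.48 ppm in SOB3-D libraries (1.77, SE 0.11, adjusted p = 7.9e-12). Its Col-0 mean of 25.5 ppm was near sob3-6. WAK2, a wall-associated kinase, averaged 54.8 ± 6.7 ppm in sob3-6 and 23 ± 1.2 ppm in SOB3-D (1.21, adjusted p = 3.7e-13), and the cysteine-rich receptor-like kinases CRK10 and CRK11 26.8 ± 5.2 and 7.62 ± 1.2 ppm in sob3-6, against 14.2 ± 1.4 and 3.54 ± 0.16 ppm in SOB3-D. WAK1, CRK4, CRK5, CRK13, CRK18, CRK19, the bacterial elongation factor receptor EFR and the co-receptors SOBIR1 and CERK1 were the others called higher, and RBOHD, the oxidase of the oxidative burst, was called lower. CRK genes stand in tandem on chromosome 4, in 2 runs of neighbouring tested genes all called higher. The run of 8 held CRK5, CRK10, CRK11, CRK12 and CRK13 with IQD22, GSH1 and EP1. The run of 6 held CRK18, CRK19, CRK21 and CRK22 with AT4G23330 and PIP1;5. In the genome 18 runs of 5 or more neighbours were higher, with 24.8% of all tested genes called higher. Runs were read as deposited only.

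**Figure D3:**
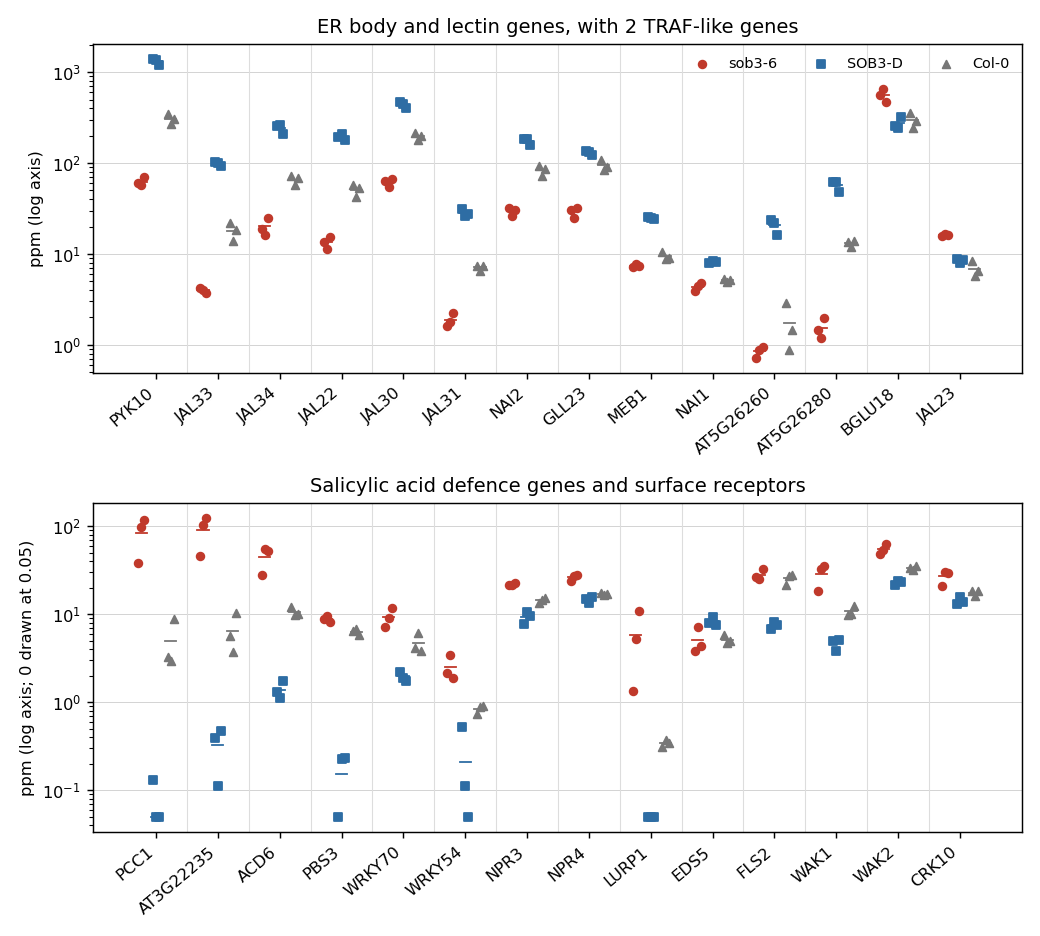
Level in ppm on a log axis of ER body and lectin genes with 2 TRAF-like genes (top) and of defence genes (bottom, 0 drawn at 0.05). Points are single libraries of sob3-6, SOB3-D and Col-0 and short lines are means of 3. PYK10 stands near 62.3 ppm in sob3-6 and 1327 ppm in SOB3-D, and ACD6 near 44.9 ppm in sob3-6 and 1.4 ppm in SOB3-D.

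The remaining genes with the largest differences higher in sob3-6 were AT5G42530 (160 ± 62 against 3.99 ± 0.53 ppm in SOB3-D, 4.93), the methyltransferase-like AT2G32160 (14.5 ± 3.3 against 1.12 ± 0.27 ppm, 2.86) and the legume lectin-like AT5G03350 (50.2 ± 18 against 6.21 ± 0.53 ppm, 2.76). CYP71B24, a cytochrome P450 gene, averaged 13.3 ± 0.97 ppm in sob3-6 and 1.19 ± 0.15 ppm in SOB3-D (2.71), and AT3G23480 and AT5G02540 differed by 2.62 and 2.61. The pseudogene AT4G08093 had 251 reads in sob3-6 and 2 in SOB3-D, a ratio of 89.3 (95% counting interval 24.5 to 742), and Col-0 was at 0.046 ppm. CER4, which makes primary alcohols of the leaf wax, and the peroxidase gene PA2 had 0 reads in SOB3-D and were at least 11.3-fold and 6.91-fold higher in sob3-6.

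Transcripts of PIF4, PIF5 and PIF7 themselves differed little. PIF4 (AT2G43010) had 165, 173 and 184 ppm in sob3-6 libraries, against 140, 160 and 143 ppm in SOB3-D libraries, without overlap (0.24, SE 0.06, adjusted p = 0.0014). That call was lost by DESeq2 on whole reads (adjusted p = 0.0918). Among all tested genes, 30.9% had sob3-6 libraries all above SOB3-D libraries. PIF5 averaged 216 ± 5.3 ppm in sob3-6 and 196 ± 10 ppm in SOB3-D (0.14, adjusted p = 0.079), and PIF7 51.8 ± 1.9 and 54 ± 2.6 ppm (-0.06, adjusted p = 0.55), with overlapping libraries for PIF7. PIF1, which represses germination in the dark, was lower in sob3-6 at 64.7 ± 5.2 ppm, against 83.2 ± 3.7 ppm in SOB3-D (-0.36, adjusted p = 2e-05). Of the 10 PIF family genes, 2 were higher (PIF4 and PIL1) and 1 lower, or 2 and 3 after median-of-ratios scaling. PIL1 was higher in sob3-6 by 0.49 to 0.77 with 1 library left out, and by 1.47 by DESeq2 on whole reads (adjusted p = 0.102). The PIL1 call was lost without sob3-6 replicate 2 (adjusted p = 0.0871) or SOB3-D replicate 3 (adjusted p = 0.0896), each of which left 1 higher, and 2 were lower without SOB3-D replicate 3. By DESeq2, 0 were higher. The share of the family called, 30%, was below the 35.7% of all tested genes.

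Of known targets of PIFs and of shade, 21 of 25 were tested, and 11 were higher in sob3-6, 3 lower and 7 not called (median 0.37). The counts were the same after median-of-ratios scaling, and 24.8% of all tested genes were higher and 10.9% lower. IAA29, an auxin response regulator induced by PIFs, had 8.18, 7.56 and 11.4 ppm in sob3-6 libraries, against 1.96, 2.93 and 2.69 ppm in SOB3-D libraries (1.5, SE 0.21, adjusted p = 1.8e-05). HAT1, a homeodomain factor induced by shade, averaged 29 ± 1.9 ppm in sob3-6 and 18.9 ± 0.54 ppm in SOB3-D (0.59, adjusted p = 6.9e-08), and LNG1, a regulator of cell elongation along the organ axis, 41.7 ± 1.8 and 31.9 ± 2.5 ppm (0.38, adjusted p = 4.4e-05). HAT2, HB-2, YUC8, which makes auxin, IAA19, BIM1, PRE1, XTH15 and PIL1 were the other genes called higher. BEE3, HBI1 and PAR2, the last a shade-induced inhibitor of elongation, were lower in sob3-6.

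SAUR genes, small auxin-induced genes whose products promote cell expansion, were higher in sob3-6 in 14 of 18 tested cases of 19, and 0 were lower (median 0.53). With median-of-ratios scaling 12 were higher and 0 lower. As deposited 77.8% of the tested SAUR genes were called, beside 35.7% of all tested genes (24.8% higher). SAUR22 (AT5G18050) had 6.09, 4.72 and 6.21 ppm in sob3-6 libraries, against 1.44, 2.14 and 1.52 ppm in SOB3-D libraries (1.31, SE 0.15, adjusted p = 4.7e-08). SAUR23 averaged 6.11 ± 0.61 ppm in sob3-6 and 2.56 ± 0.29 ppm in SOB3-D (1.00, adjusted p = 5.1e-07), SAUR65 9.95 ± 1 and 5.18 ± 0.54 ppm (0.83), and SAUR62 19.2 ± 2.5 and 11.9 ± 0.66 ppm (0.64). The called genes came from the cluster of SAUR19 to SAUR24 on chromosome 5, from that of SAUR62 to SAUR68 on chromosome 1 and from SAUR16 and SAUR50. Members of a cluster are near-identical and can share reads, so single values are uncertain.

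Among 19 tested auxin response genes, 10 were higher in sob3-6, 2 lower and 7 not called (median 0.45), with the same counts after median-of-ratios scaling. Their share called as deposited was 63.2%, beside 35.7% of all tested genes. IAA2, IAA7, IAA1, IAA14, IAA19 and IAA29, repressors of auxin signalling that auxin or PIFs induce, were higher, as were the hormone-conjugating GH3.3, GH3.6 and DFL2 and the carrier gene PIN3. IAA7 averaged 138 ± 12 ppm in sob3-6 and 89.7 ± 7.4 ppm in SOB3-D (0.62, adjusted p = 2.2e-08). IAA17, a repressor of the same family, went the other way, with 35.7, 35.5 and 32.3 ppm in sob3-6 libraries, against 71.4, 73.4 and 69.2 ppm in SOB3-D libraries (-1.03, SE 0.07, adjusted p = 1.9e-13), and IAA16 was lower too.

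Of 21 auxin synthesis and transport genes tested, 10 were higher in sob3-6 and 4 lower, or 7 and 5 after median-of-ratios scaling. As deposited 66.7% of them were called, beside 35.7% of all tested genes. PIN3, an efflux carrier that acts in bending and shade growth, had 173, 185 and 174 ppm in sob3-6 libraries, against 110, 114 and 103 ppm in SOB3-D libraries (0.70, SE 0.05, adjusted p = 9.4e-12). PIN7 averaged 203 ± 7.9 ppm in sob3-6 and 126 ± 3.5 ppm in SOB3-D (0.68, adjusted p = 1.4e-12), PIN4 150 ± 2.8 and 116 ± 3.8 ppm (0.37), and the transporter gene ABCB1 164 ± 0.43 and 127 ± 6.3 ppm (0.37). Lower in sob3-6 were ABCB19, LAX3 and the synthesis genes TAR2 and YUC2. Levels of PIN3 and PIN7 in Col-0, 164 and 178 ppm, were nearer sob3-6.

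Cell wall loosening genes differed in both directions, with 9 of 21 tested lower in sob3-6 and 6 higher (10 and 6 after median-of-ratios scaling). Their share called as deposited was 71.4%, beside 35.7% of all tested genes. XTH31, a xyloglucan-modifying enzyme, had 68.3, 63.7 and 61.2 ppm in sob3-6 libraries, against 452, 420 and 429 ppm in SOB3-D libraries (-2.73, SE 0.08, adjusted p = 4.5e-13). The expansins EXPB1 and EXPA11 were lower in sob3-6 (28.1 ± 0.95 and 30.1 ± 0.75 ppm, against 62.9 ± 2.3 and 50.4 ± 3.9 ppm in SOB3-D), while EXPA5 was higher at 49 ± 2.5 ppm, against 31.7 ± 1.9 ppm in SOB3-D. XTH4, XTH15, XTH17, XTH24 and EXPA6 were also higher, and XTH19, EXPB3, EXPA1, EXPA3, EXPA8 and EXPA10 lower. Col-0 had 84.8 ppm of XTH31 and 27.2 ppm of EXPB1, near sob3-6, but 45.7 ppm of EXPA11, near SOB3-D.

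Aquaporins, the water channels of the plasma membrane and vacuole, were lower in sob3-6 in 10 of 17 tested cases and higher in 4 (13 and 3 after median-of-ratios scaling). GAMMA-TIP, a vacuolar channel, had 289, 283 and 275 ppm in sob3-6 libraries, against 494, 459 and 479 ppm in SOB3-D libraries (-0.75, SE 0.04, adjusted p = 9.9e-15). PIP2;3 averaged 67.4 ± 3 ppm in sob3-6 and 123 ± 5.4 ppm in SOB3-D (-0.86), PIP2B 139 ± 4.7 and 232 ± 10 ppm (-0.74) and PIP2A 934 ± 52 and 1280.2 ± 13 ppm (-0.46). PIP1;5, PIP2;4, PIP2;8 and TIP2;1 were higher. As deposited 82.4% of the tested aquaporins were called, beside 35.7% of all tested genes. Summed over the list, sob3-6 libraries held 5772 to 5897 ppm and SOB3-D libraries 6680.1 to 7199 ppm, without overlap.

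Gibberellin and brassinosteroid genes were split. GA3OX1, which makes bioactive gibberellin, had 3.45, 4.42 and 3.82 ppm in sob3-6 libraries, against 13.5, 15.2 and 16.9 ppm in SOB3-D libraries (-1.73, SE 0.13, adjusted p = 3.3e-12). Of 19 gibberellin genes tested, 5 were higher and 5 lower (4 and 5 after median-of-ratios scaling, 2 higher by edgeR or DESeq2, and 3 higher without sob3-6 replicate 2 or SOB3-D replicate 2). The share called as deposited was 52.6%, beside 35.7% of all tested genes. GASA6 and the DELLA repressor GAI were higher at 320 ± 8.9 and 68.4 ± 5.6 ppm in sob3-6, against 222 ± 0.53 and 51.1 ± 4.4 ppm in SOB3-D. The receptors GID1A and GID1B, the DELLA gene RGA1 and GASA4 were lower, and RGL2, RGL3 and KAO2 higher.

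ROT3, a brassinosteroid synthesis enzyme, averaged 8.39 ± 0.7 ppm in sob3-6 and 19.9 ± 0.25 ppm in SOB3-D (-1.16, adjusted p = 5e-10), and BAS1, which inactivates brassinosteroids, 6.28 ± 0.67 and 12.9 ± 2.8 ppm (-0.91, adjusted p = 1.6e-06). The kinase BIN2, which represses the pathway, was lower in sob3-6 (134 ± 5.8 against 172 ± 8.7 ppm), and the receptor BRI1 higher (186 ± 3.5 against 152 ± 4.3 ppm). In all 6 of 18 tested brassinosteroid genes were lower and 4 higher, or 8 and 2 after median-of-ratios scaling. The share called as deposited was 55.6%, beside 35.7% of all tested genes. DWF4, DET2 and BR6OX2, which act in synthesis, were among the lower genes, and CPD and DWF5, which do so too, among the higher ones.

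**Figure D4:**
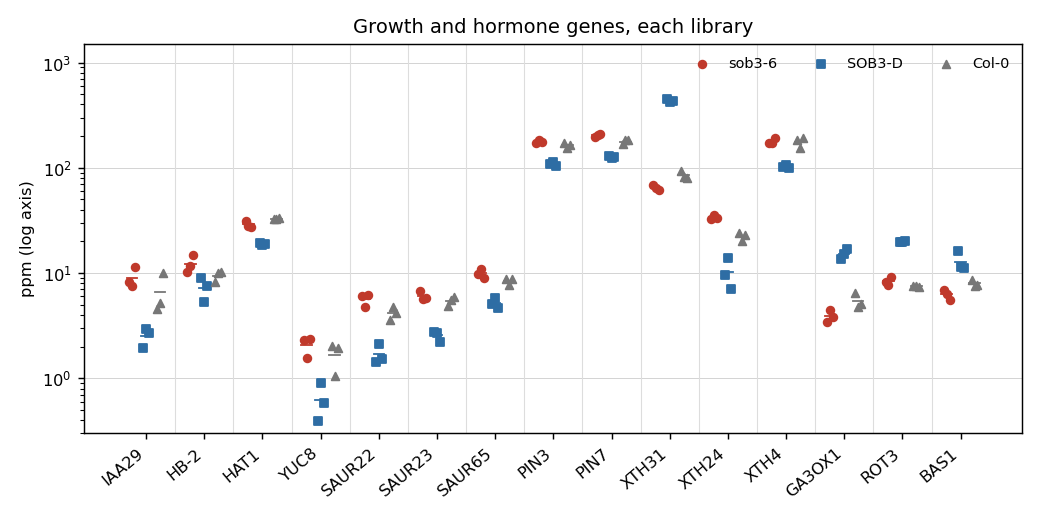
Level in ppm on a log axis of genes of auxin and shade response, auxin transport, the cell wall and hormone metabolism. Points are single libraries of sob3-6, SOB3-D and Col-0 and short lines are means of 3. IAA29 stands at 7.56 to 11.4 ppm in sob3-6 and 1.96 to 2.93 ppm in SOB3-D, and XTH31 at 61.2 to 68.3 ppm in sob3-6 and 420 to 452 ppm in SOB3-D.

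Glucosinolates are sulfur-rich defence compounds of the cabbage family, made from tryptophan (indole type) or methionine (aliphatic type). Indole genes were lower in sob3-6 in 7 of 16 tested cases and higher in 4. Of them 68.8% were called as deposited, beside 35.7% of all tested genes. After median-of-ratios scaling 8 were lower and 1 higher. As deposited, 2 were higher without sob3-6 replicate 2 or SOB3-D replicate 1. CYP79B2, which makes the first intermediate from tryptophan, had 39, 40.6 and 35.6 ppm in sob3-6 libraries, against 103, 101 and 116 ppm in SOB3-D libraries (-1.45, SE 0.09, adjusted p = 1.1e-10), and its paralog CYP79B3 averaged 52.4 ± 3 and 96 ± 6.2 ppm (-0.86, adjusted p = 4.2e-10). MYB34, which activates them, averaged 38.2 ± 0.7 ppm in sob3-6 and 67.9 ± 0.94 ppm in SOB3-D (-0.81, adjusted p = 2.2e-12). Col-0 was below both lines for these 3 genes, at 28.6, 36 and 32.9 ppm. CYP81F3, which modifies the indole ring, was higher in sob3-6 (5.09 ± 0.38 against 2.03 ± 0.63 ppm), and CYP81F4 of the same subfamily was lower.

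Aliphatic genes were higher in sob3-6 in 7 and lower in 9 of 21 tested cases (5 and 10 after median-of-ratios scaling). As deposited 76.2% of them were called, beside 35.7% of all tested genes (24.8% higher and 10.9% lower). The side-chain modifying genes AOP2 and FMOGS-OX3 were higher, with 63.8 ± 0.83 and 109 ± 4.6 ppm in sob3-6, against 34 ± 1.7 and 61.3 ± 3.9 ppm in SOB3-D (0.89 and 0.83, adjusted p = 1.4e-12 and 4.2e-10). The activators MYB28 and MYB29 were also higher. BCAT4, the first enzyme of chain elongation, was lower at 244 ± 11 ppm, against 338 ± 14 ppm in SOB3-D (-0.47, adjusted p = 1e-08), with GSTF11 and the elongation genes MAM3, IPMI1, IPMI2 and IMD1.

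Of 23 tested flowering time genes, 5 were higher in sob3-6 and 6 lower (5 and 7 after median-of-ratios scaling), against 24.8% higher and 10.9% lower of all tested genes. SOC1, which promotes flowering, had 54, 49 and 53.2 ppm in sob3-6 libraries, against 26.1, 28.7 and 30.1 ppm in SOB3-D libraries (0.86, SE 0.07, adjusted p = 4.2e-10). AGL24 and FUL, its partners, and SPL3 were also called higher. Among repressors, TOE1 and SMZ were lower at 117 ± 10 and 3.06 ± 0.45 ppm in sob3-6, against 171 ± 0.37 and 7.97 ± 1.4 ppm in SOB3-D (-0.55 and -1.14, adjusted p = 8e-10 and 1.2e-07), with TOE2 and SVP. The promoters SPL10 and SPL15 were lower as well, and the repressor SNZ was higher. Col-0 had 57 ppm of SOC1 and 101 ppm of TOE1, near sob3-6.

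Light signalling genes were lower in 7 and higher in 3 of 23 tested cases, and lower in 14 after median-of-ratios scaling, by TMM scaling or by edgeR. As deposited 43.5% of them were called, beside 35.7% of all tested genes. BBX21 and BBX22, B-box factors that promote photomorphogenesis, were lower at 35.3 ± 2.6 and 12.4 ± 2 ppm in sob3-6, against 63.9 ± 4.7 and 26.7 ± 3.4 ppm in SOB3-D (-0.84 and -1.05, adjusted p = 1.9e-10 and 5.1e-06). HYH, a bZIP factor of the same response, was lower as well (12.8 ± 1.1 against 18.5 ± 2.1 ppm). Of 19 core clock genes, 3 were lower and 2 higher (6 and 2 after median-of-ratios scaling), a share of 26.3% called that was below the 35.7% of all tested genes. The counts were 5 lower without SOB3-D replicate 1 and 1 higher without sob3-6 replicate 1, sob3-6 replicate 2 or SOB3-D replicate 3. GI and PRR9, evening and morning components, averaged 18.6 ± 2.1 and 34.5 ± 4.1 ppm in sob3-6, against 29.8 ± 1.4 and 50.7 ± 5 ppm in SOB3-D (-0.66 and -0.54, adjusted p = 2e-06 and 1.9e-05). All plants were harvested at one time of day, so a shift in phase and a change in level cannot be told apart.

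Flavonoid genes were lower in 9 and higher in 2 of 19 tested cases, also with median-of-ratios scaling. As deposited 57.9% of them were called, beside 35.7% of all tested genes (10.9% lower). However, the 9 lower became 5 or 4 when sob3-6 replicate 1 or 3 was left out, and 3 when SOB3-D replicate 1 was. PAP1, an activator of anthocyanin synthesis, averaged 2.69 ± 0.23 ppm in sob3-6 and 5.91 ± 0.77 ppm in SOB3-D (-0.90, adjusted p = 3.8e-05), and CHI, an early enzyme of the pathway, 18.7 ± 2 and 25.5 ± 0.59 ppm (-0.43). UGT78D1 was higher in sob3-6 (85.6 ± 5.4 against 62.6 ± 5.8 ppm). Of 12 cold response genes tested, 6 were lower and 2 higher (7 and 2 after median-of-ratios scaling). Their share called as deposited was 66.7%. The higher genes were the tandem COR15A and COR15B, which code for chloroplast proteins that protect membranes in the cold. COR15A had 41.4, 50.1 and 39.9 ppm in sob3-6 libraries, against 9.3, 8.56 and 14.6 ppm in SOB3-D libraries (1.95, SE 0.23, adjusted p = 0.00024), with Col-0 at 44 ppm. COR413-PM1 and LTI30 were lower at 96.9 ± 0.34 and 0.45 ± 0.05 ppm in sob3-6, against 168 ± 22 and 3.35 ± 0.84 ppm in SOB3-D.

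Of jasmonate genes 36.4% were called, beside 35.7% of all tested genes, lower in 5 and higher in 3 of 22 tested cases (6 and 1 after median-of-ratios scaling). The higher count was 1 without sob3-6 replicate 1 or SOB3-D replicate 3 and 5 without sob3-6 replicate 3. LOX3, a lipoxygenase of jasmonate synthesis, was higher at 15.3 ± 0.64 ppm in sob3-6, against 8.24 ± 0.29 ppm in SOB3-D (0.82, adjusted p = 1.7e-07), while AOC1, AOC2 and OPR3, later enzymes of the same pathway, were lower. Ethylene genes were higher in 7 and lower in 2 of 18 tested cases, but 2 and 2 after median-of-ratios scaling. As deposited 50% of them were called, beside 35.7% of all tested genes. The higher count was 3 without SOB3-D replicate 3, and the lower count was 1 without SOB3-D replicate 1 or 3 or sob3-6 replicate 1 or 2. ACS4, which makes the ethylene precursor, averaged 1.54 ± 0.032 ppm in sob3-6 and 0.264 ± 0.36 ppm in SOB3-D (1.04, adjusted p = 0.00013).

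Cell division genes were higher in 11 and lower in 1 of 29 tested cases (9 and 1 after median-of-ratios scaling, 6 higher by edgeR and 2 higher by DESeq2). The share called as deposited was 41.4%, beside 35.7% of all tested genes. Over all 18502 tested genes edgeR called 2207 higher and DESeq2 1595. CYCD3;2, a cyclin of the G1 phase, averaged 75.6 ± 4.7 ppm in sob3-6 and 54.3 ± 2.2 ppm in SOB3-D (0.47, adjusted p = 4.6e-08), and CYCD3;1 51.9 ± 0.9 and 41.6 ± 1.6 ppm (0.31, adjusted p = 0.00011). The 1 lower gene was AUR2, an Aurora kinase gene, with 10.4, 10.2 and 8.59 ppm in sob3-6 libraries, against 24, 21.6 and 18.6 ppm in SOB3-D libraries (-1.06, SE 0.10, adjusted p = 1.4e-09). Of 31 growth-regulating and TCP factors 25.8% were called, beside 35.7% of all tested genes, with 6 higher and 2 lower (3 and 4 after median-of-ratios scaling). The counts were 3 higher without sob3-6 replicate 3, 0 lower without sob3-6 replicate 1 or SOB3-D replicate 2, and 1 lower without sob3-6 replicate 2 or SOB3-D replicate 3. TCP4, which restrains leaf cell division, averaged 91.3 ± 2 ppm in sob3-6 and 71 ± 6.3 ppm in SOB3-D (0.36, adjusted p = 2.1e-05), and GRF2 17 ± 0.97 and 12.3 ± 0.45 ppm (0.43).

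Some other AHL genes, most of them in clade B, differed between the lines as well. In clade B, whose members form complexes with clade A proteins such as SOB3, 5 of 14 were higher in sob3-6 and 3 lower (3 and 4 after median-of-ratios scaling). The share called as deposited was 57.1%, beside 35.7% of all tested genes. AHL10 had 40.5, 44.5 and 46.5 ppm in sob3-6 libraries, against 27.4, 23.9 and 29.8 ppm in SOB3-D libraries (0.68, SE 0.07, adjusted p = 1.7e-08). AHL1 had 1.76, 1.57 and 1.59 ppm in sob3-6 libraries, against 6.55, 4.73 and 6.19 ppm in SOB3-D libraries (-1.36, SE 0.16, adjusted p = 5.3e-08), and AHL2 was lower too. Libraries of the lines overlapped in none of these 3 genes, which held for 44.1% of all tested genes. Col-0 had 1.77 ppm of AHL1, near sob3-6. In clade A, 6 of 15 genes passed the filter and only AHL17 was called, as higher. That share of 16.7% was below the 35.7% of all tested genes. The AHL17 call was lost without sob3-6 replicate 2 (adjusted p = 0.0712), with TMM scaling (0.0515), by edgeR (0.089) and by DESeq2 (0.182). Without SOB3-D replicate 2, 2 clade A genes were called higher.

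Photosynthesis genes of the nucleus, the most abundant group measured, showed small differences that depended on scaling. Of 34 tested, 21 were lower in sob3-6 and 1 higher (median -0.11), a share of 64.7% called beside 35.7% of all tested genes. After median-of-ratios scaling 28 were lower and 1 higher, but after quantile normalization 0 were lower and 3 higher. LHCA4, an antenna protein of photosystem I, averaged 6341 ± 53 ppm in sob3-6 and 7529.9 ± 306 ppm in SOB3-D (-0.25, adjusted p = 6.2e-06). PGK1, an enzyme of the Calvin cycle, was higher at 1379 ± 52 ppm, against 1173 ± 4.1 ppm in SOB3-D (0.23), and 2 genes were called higher without SOB3-D replicate 2. Cytosolic ribosomal protein genes were higher in 11 of 18 tested cases and lower in 0 (median 0.18), but in 4 and 0 after median-of-ratios scaling. As deposited 61.1% of them were called. Of all tested genes 24.8% were higher as deposited and 13.9% after scaling. RPL23AA averaged 288 ± 9.6 ppm in sob3-6 and 245 ± 11 ppm in SOB3-D (0.23, adjusted p = 0.00021).

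**Figure D5:**
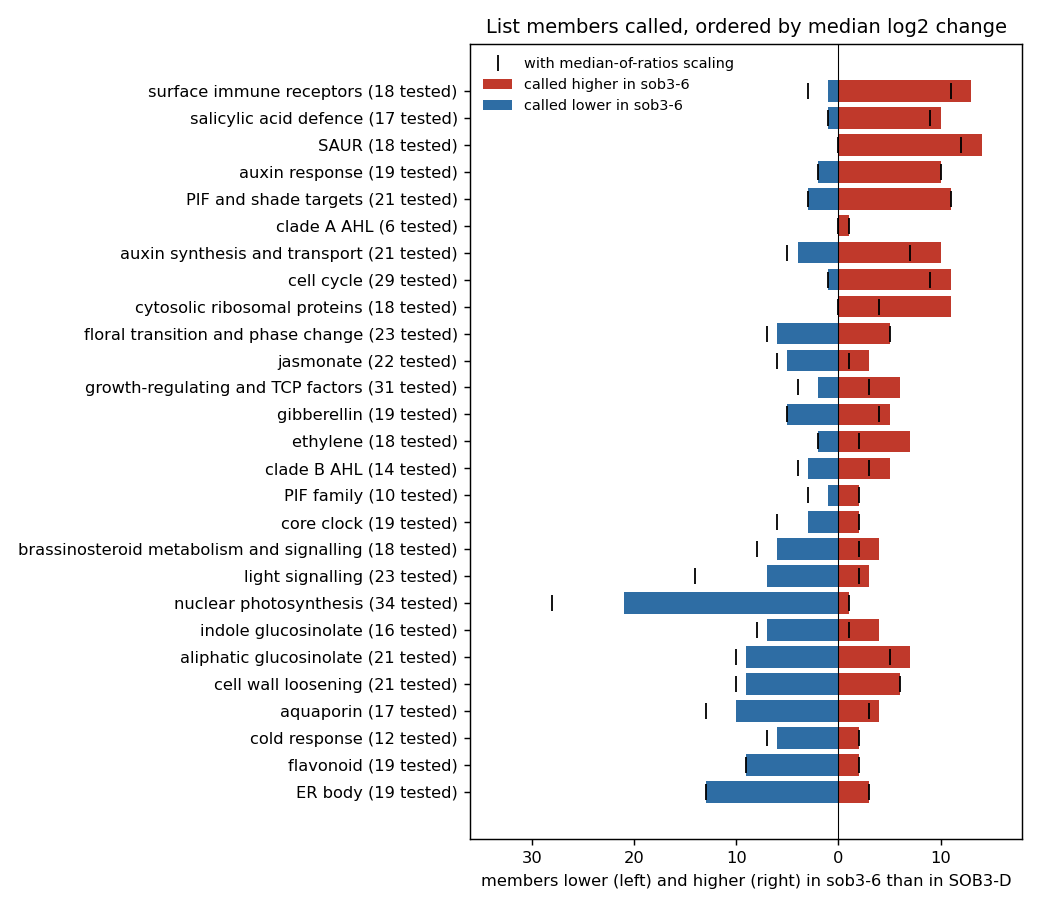
Number of members of each gene list called lower (bars to the left) and higher (bars to the right) in sob3-6 than in SOB3-D, ordered by median log2 difference. Black ticks give the counts after median-of-ratios scaling. SAUR genes reach 14 higher and 0 lower, ER body genes 13 lower and 3 higher, and ticks and bars differ by 7 genes for photosynthesis (lower), light signalling (lower) and ribosomal protein genes (higher).

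The labelled tissue was checked against markers. Of 19 root markers 15 did not pass the filter and 5 had 0 reads in both lines. The root list summed to 68.3 to 74.1 ppm in sob3-6 libraries and 69.1 to 79.6 ppm in SOB3-D libraries, ranges that overlap, and the calls of FRO2 (higher) and SCR (lower) were lost by leaving out, among others, replicate 1 of either line. Without SOB3-D replicate 2, 2 root markers were higher. Of 11 flower and 15 seed markers, 2 and 1 were tested and 0 were called. Vascular markers were higher in sob3-6 in 7 of 15 cases and lower in 0 (5 and 0 after median-of-ratios scaling, 3 higher by edgeR, 2 higher by DESeq2, 2 lower without SOB3-D replicate 3), and summed to 733 to 782 ppm in sob3-6 libraries, against 645 to 668 ppm in SOB3-D libraries. As deposited 46.7% of them were called, beside 35.7% of all tested genes. SWEET11, a sucrose exporter of phloem parenchyma, averaged 93.8 ± 8.3 ppm in sob3-6 and 61.3 ± 4.3 ppm in SOB3-D (0.60, adjusted p = 6e-09).

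Shoot meristem markers summed to 109.6 to 118 ppm in sob3-6 libraries, against 81.4 to 86 ppm in SOB3-D libraries, and 3 of 8 tested were higher and 1 lower (1 and 1 after median-of-ratios scaling, 1 higher without SOB3-D replicate 3). The share called as deposited was 50%, beside 35.7% of all tested genes. CLV1, a receptor of the meristem, averaged 91.1 ± 5.7 ppm in sob3-6 and 63.2 ± 2.5 ppm in SOB3-D (0.52, adjusted p = 1.7e-08). It made up most of the sums above, and the median log2 difference of the tested markers was 0.00 (-0.05 after median-of-ratios scaling). The other higher markers, KNAT1 and STM, lost their calls with that scaling (adjusted p = 0.0524 and 0.114). The 1 lower marker, LOB, lost its call without replicate 1 or 3 of either line. Of 17 epidermis markers 3 were higher and 6 lower (1 and 6 after median-of-ratios scaling), with sums of 839 to 867 ppm in sob3-6 and 843 to 862 ppm in SOB3-D. Their share called as deposited was 52.9%. SLAC1 and MYB60, expressed in guard cells, and SPCH, TMM and EPF2 of the stomatal lineage were lower, and ATML1, which specifies epidermis, was higher. The part of the differing vascular, meristem and stomatal markers in the gene differences above was not tested.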

How the data were processed

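RNA-seq of 4 genotypes with 3 libraries each was used. Per the labels' protocols, RNA was purified with a DNase step and a stranded kit for mRNA was used for the libraries. Bowtie 1.2.1, bcl2fastq and the TAIR10 genome are named in the submitters' processing notes. The authors deposited a signal per transcript (32950 transcripts, 25089 loci), which is ppm of mapped tags per the labels. All transcripts of a sob3-6 or SOB3-D library sum to 1599902 to 1614889 ppm, and 1 transcript per locus to 1063973 to 1068309 ppm, so a read may have been counted in each transcript it matched. The use of strand in counting is not given in the sources used. Divided by what 1 read is worth, 100% of the values came out whole to within 0.01 reads, so whole reads were recovered for edgeR 4.0.16 and DESeq2 1.42.0, used as alternatives only.

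Each locus was read through its transcript with the highest mean over 12 libraries. Genes with at least 1 ppm in at least 3 libraries (18502) were put on the log2(ppm + 1) scale and tested by limma 3.58.1 (R 4.3.3, trend and robust options) over all 12 libraries with genotype as the only term. Residual degrees of freedom were 8 and prior ones 22.4 in the median. The Benjamini-Hochberg adjustment covered every tested gene, and calls were made below an adjusted p of 0.05. Fold changes understate low genes. On simulated data for this contrast the test recovered 65 of 100 genes changed 1.5-fold and 100 of 100 changed 3-fold. The simulation changed few genes, none of the lowest levels, with a single fixed spread and no shift between lines. These figures therefore check the code and do not give the power in the real data. Median-of-ratios scaling was applied as the second reading of the limma tests and of the counts of called genes, list members and families. Library overlap, runs of neighbours, upstream windows, level groups, levels and sums were read from ppm as deposited only. Other alternatives were scaling, pseudocount, filter, libraries fitted, depth, a replicate block and leaving out each library.

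The comparison, 33 gene lists (694 entries, 671 distinct loci in the files) and rules were chosen with earlier results of these data known. Named are the altered and PIF genes, the 12 largest differences each way among called genes with non-overlapping libraries, called list members (values for up to 4 with the lowest p) and genes within 20 kb of SOB3. Any other gene was picked after its values were seen. Names, positions and upstream windows are from TAIR10.1, which held 24747 loci.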

Additional observations from a re-analysis of the deposited data

How the results depend on the processing

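The number of genes higher in sob3-6 (4588 as deposited) was 2565 with median-of-ratios scaling, 2478 with TMM scaling, 2925 after quantile normalization, 2207 by edgeR and 1595 by DESeq2. The number lower (2012) stayed within 1.5 times, at 1734 to 3015 over all settings. Leaving out 1 library gave 3682 to 4214 higher and 1775 to 1931 lower genes. Of list members, 170 were called higher and 144 lower, with 112 higher by edgeR, 97 by DESeq2, and 146 to 160 higher and 121 to 136 lower with 1 library left out. SOB3 was called with a pseudocount of 4 ppm and with only the 6 libraries fitted (0.21 in both), and ranged from 0.15 to 0.25 with 1 library left out. The difference of CAB1, an antenna gene, was 0.0 after quantile normalization (-0.32 as deposited), and that of PILS4 was 0.02 without sob3-6 replicate 3 and 0.08 without SOB3-D replicate 2, reversing both signs (lowest value for PILS4 -0.23, without SOB3-D replicate 1). The cause was not tested.

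Same-numbered libraries of the lines had deviations that correlated at 0.0268 to 0.0762, and differently numbered ones at -0.0822 to 0.0412. Whether the numbers mark a shared batch was not tested. With the replicate number as a block, 4899 genes were higher and 2173 lower, and 0 of 148 named genes changed their call. Jasmonate genes called higher became 6 and ribosomal protein genes 17. Of the 148 named genes, 144 kept their call with median-of-ratios scaling, 140 by edgeR and 133 by DESeq2. Of the 4626 genes with the lowest levels 26.2% were called, and 3.98% with at least a 2-fold difference. Of the 4626 with the highest levels 49.7% were called, and 1.25% with at least that difference.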

Other observations

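Transcripts of the plastid genome, a group picked after its values were seen, were higher in sob3-6 in 42 of 83 tested cases and lower in 2. The median log2 difference was 0.37, and after median-of-ratios scaling 38 were higher and 2 lower. Of all tested genes 24.8% were higher as deposited and 13.9% after scaling. The libraries were made with a kit for mRNA, and its capture of plastid transcripts was not tested. They summed to 20513, 20293 and 20671 ppm in sob3-6 libraries, against 16428, 18517 and 17921 ppm in SOB3-D libraries, and to 24007, 19781 and 20216 ppm in Col-0. Mitochondrial genome transcripts were higher in 7 of 44 cases and lower in 1, both shares below those of all tested genes (24.8% higher, 10.9% lower).

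Families were also counted by identical annotated product, with at least 8 tested genes in each. Of 12 genes of the TCP-1/cpn60 chaperonin family, which fold proteins in the cytosol and plastid, 11 were higher in sob3-6 and 0 lower (10 and 0 after median-of-ratios scaling). Of 35 genes of the lipid-transfer and seed storage albumin family, 17 were lower and 2 higher (21 and 2 after median-of-ratios scaling), with a median of -0.29. Of 19 AP2/B3-like transcription factor genes, 9 were higher and 0 lower (7 and 0 after median-of-ratios scaling). These families were picked from 230 after their values were seen. The orphan gene QQS, known for a role in starch metabolism and picked in the same way, averaged 3.07 ± 0.73 ppm in sob3-6 and 1.21 ± 0.28 ppm in SOB3-D, while Col-0 averaged 49.3 ppm.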
